A study of Mus musculus with 71 samples.

Results

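The TAM receptors are a family of 3 receptor tyrosine kinases, Tyro3, Axl and Mertk, and the genes described here are these 3 together with the 2 genes of their ligands, Gas6 (growth arrest specific 6) and Pros1 (protein S). These 5 genes, of 37681 in the tables, were chosen by name, and the choice was made because Mertk was already known to have a higher mean level after cocaine in the nucleus accumbens (NAc) at 1 day of abstinence. Values of that comparison are therefore given as a description with no test. RNA-seq was measured in 71 libraries from micro-punches of the NAc, the ventral tegmental area (VTA) and the prefrontal cortex (PFC). The mice were wild type C57BL/6 by the labels (C57BL/6J in the methods of the study), 8 weeks old and of both sexes, and had self-administered intravenous cocaine (0.7 mg/kg per infusion) or saline in 21 daily sessions, after earlier training on food pellets in both arms. Tissue was taken 1 day or 28 days after the last session, so that the 2 treatments, 3 regions and 2 days made 12 groups. Each group held 6 libraries, except saline VTA at day 28, which held 5. The sources used here do not say whether a library pooled animals or whether the 3 regions came from the same mice, so a p-value measures only the spread between libraries, which may in part be technical. Library numbers are those of the table columns, and at day 28 they name a column only.

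TAM receptors recognise dying cells and cell debris through their ligands, which bind phosphatidylserine on the outer face of a membrane and the receptor at the same time. Gas6 binds all members of the family, whereas protein S, best known as an anticoagulant of the blood plasma, acts on Mertk and Tyro3. Both ligands have to be carboxylated with the help of vitamin K before they bind a membrane. In the brain, Tyro3 is known mainly from neurons, Mertk from microglia and astrocytes, where it takes part in the removal of synapses and debris, and Axl from microglia and cells of the vessel wall.

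Mertk lies on chromosome 2 (128524692 to 128628630, forward strand, mouse genome mm9) and Tyro3 on the same chromosome (119623469 to 119643840, forward strand). Axl lies on chromosome 7 (26542292 to 26573724, reverse strand), Gas6 on chromosome 8 (13465374 to 13494535, reverse strand) and Pros1 on chromosome 16 (62854133 to 62929172, forward strand). All are protein-coding, and the annotation gives no other gene that shares exon bases with any of them. The 250 bases before a RefSeq start site of Mertk and Tyro3 are printed because these are the receptors whose level differed most between regions. Such a start site need not be the gene start given above, so the comparison is only between the 2 windows. They are RefSeq sequence of the GRCm38.p6 build, read 5′ to 3′ along the gene, and capitals mark each CG dinucleotide.

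Mertk, chr2:128698665-128698914, forward strand: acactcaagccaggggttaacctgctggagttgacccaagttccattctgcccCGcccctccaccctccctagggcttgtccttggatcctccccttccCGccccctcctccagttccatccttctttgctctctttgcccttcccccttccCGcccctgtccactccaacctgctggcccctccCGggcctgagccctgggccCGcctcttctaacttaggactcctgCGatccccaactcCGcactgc

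Tyro3, chr2:119799264-119799513, forward strand: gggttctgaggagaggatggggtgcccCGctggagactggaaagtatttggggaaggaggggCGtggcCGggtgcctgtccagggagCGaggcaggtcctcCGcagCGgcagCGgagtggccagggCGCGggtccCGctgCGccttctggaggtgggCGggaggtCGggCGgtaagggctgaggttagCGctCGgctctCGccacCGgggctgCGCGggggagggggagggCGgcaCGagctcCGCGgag

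The Mertk window holds 7 CG dinucleotides and the Tyro3 window 24, against a median of 6 in 32841 promoter windows of the same length. The windows of Axl, Gas6 and Pros1 hold 5, 10 and 15. Their GC content is 63.6% in Mertk and 73.2% in Tyro3, beside a median of 52.4%. Each of the 5 windows was also searched on both strands for the site of the Nr4a family (AAAGGTCA), the core letters of the glucocorticoid receptor site (AGAACA) and the cAMP response element (TGACGTCA). None of the 5 windows holds these letters. They are present in 1.34%, 16.1% and 1.55% of all promoter windows, and the lack of a match says only that these letters are not in the window.

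The gene counts of a library summed to 20971967 at the lowest and 49700932 at the highest. Levels below are in RPKM, that is reads scaled to the length of the gene and to the depth of the library, so that genes can be compared with each other. The gene lengths were those behind the authors' RPKM values (Mertk 4321 bases, Axl 4285, Tyro3 4480, Gas6 2608 and Pros1 3318). All exons of a gene in the annotation together cover 4336, 5033, 6226, 2593 and 4088 bases, in the same order. Comparisons between genes, such as shares and orders of levels, therefore depend on the lengths used. Levels of the VTA and PFC at day 1 are the authors' RPKM values, and those of the other tables were scaled by TMM from counts. All 5 genes had a row in all 6 tables and passed the filter on low values in each. The tissue labels were checked by markers: the summed level of 10 medium spiny neuron markers was 1819 to 4042 RPKM in the NAc, that of 10 dopamine neuron markers was 666 to 2771 RPKM in the VTA against at most 37.6 elsewhere, and that of 8 cortical excitatory neuron markers was 492 to 819 RPKM in the PFC. 3 libraries stood apart. Saline PFC library 4 at day 28 had 1436 RPKM of the medium spiny neuron markers against at most 151 in any other PFC library, and cocaine VTA library 6 at day 1 and saline VTA library 4 at day 28 had 248 and 218 RPKM of 6 fibroblast markers against at most 99.0 in any other VTA library. The NAc libraries varied widely in the cortical markers, from 7.98 to 299 RPKM.

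In saline libraries at day 28, Tyro3 and Mertk were lower in the VTA than in the NAc and the PFC, whereas Axl and both ligand genes were higher there. The 3 tables of that day hold counts, so their saline libraries were joined, scaled together and fitted at once, and a gene was called where its p-value, adjusted over all genes by the Benjamini-Hochberg method, was under 0.05. All 5 genes were called between the NAc and the VTA and all 5 between the VTA and the PFC, and 0 of 5 between the NAc and the PFC. Many genes differed between these regions, so the counts have to be read against 62.5%, 57.8% and 40.7% of all 17181 genes called in these comparisons. Each pair of these comparisons shares the libraries of 1 region. In the third comparison 0 of 5 genes also had an unadjusted p under 0.05, and DESeq2 called the same numbers of 5, 5 and 0.

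Tyro3 had the largest regional difference of the 5 genes. Its level was 74.8 to 96.0 RPKM in the 6 saline NAc libraries (median 86.1) and 79.1 to 88.5 in the 6 saline PFC libraries (median 83.5). In the 5 saline VTA libraries it was 23.4, 23.5, 26.1, 18.9 and 27.4 RPKM. The VTA did not overlap with either of the other regions. Tyro3 was higher in the NAc than in the VTA by 1.84 ± 0.09 (SE) on the log2 scale (3.59-fold, adjusted p = 1.11e-11, edgeR quasi-likelihood test), and the VTA lay 1.83 below the PFC (log2 difference -1.83 ± 0.09, adjusted p = 1.22e-11). Of all genes tested, 3.80% had a lower value in that comparison.

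Mertk followed the same order at a lower level. It was at 10.1 to 10.9 RPKM in saline NAc libraries (median 10.6) and at 8.42 to 11.2 in saline PFC libraries (median 9.84). The 5 saline VTA libraries were at 3.08, 5.54, 5.76, 6.30 and 8.52 RPKM. The highest VTA library reached into the range of the PFC and stayed below that of the NAc. The NAc exceeded the VTA by 0.85 ± 0.17 (1.80-fold, adjusted p = 0.00028), and the VTA was below the PFC by -0.78 ± 0.17 (adjusted p = 0.000681, edgeR).

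The ligand genes ran the other way. Gas6 was at 31.7 to 38.3 RPKM in saline NAc libraries (median 33.3), at 31.2 to 35.9 in the PFC (median 33.6), and at 54.8, 42.7, 43.2, 59.4 and 56.0 in the VTA, with no overlap. The NAc was below the VTA by -0.60 ± 0.09 (adjusted p = 9.06e-06, edgeR), and the VTA was 1.52-fold above the PFC (0.60 ± 0.09, adjusted p = 9.31e-06). Pros1 was the lowest of the 5 genes in the NAc and the PFC, whereas in the VTA its saline mean of 7.42 RPKM lay above the 5.84 of Mertk. Its level was 3.67 to 4.01 RPKM in the NAc (median 3.81), 3.10 to 4.50 in the PFC (median 3.41), and 5.11, 5.14, 6.60, 11.4 and 8.83 in the VTA. Every VTA library was above every library of the other regions, and the widest spread was also in the VTA. The difference was -0.97 ± 0.17 between the NAc and the VTA (adjusted p = 0.000102, edgeR) and 1.04 ± 0.17 between the VTA and the PFC (2.06-fold, adjusted p = 5.48e-05).

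Axl had the smallest regional difference of the 5. It was at 14.6 to 16.4 RPKM in saline NAc libraries (median 15.8), at 12.3 to 15.9 in the PFC (median 14.0) and at 12.3, 17.5, 18.7, 22.7 and 26.0 in the VTA. The lowest VTA library lay below the NAc range, so the groups overlapped. Axl was lower in the NAc than in the VTA by -0.32 ± 0.13 (adjusted p = 0.0426) and higher in the VTA than in the PFC by 0.46 ± 0.13 (1.38-fold, adjusted p = 0.00653, edgeR). The first of these calls was lost without the 2 libraries of day 28 that stood apart by their markers (-0.27 ± 0.14, adjusted p = 0.101), without the filter on low counts (adjusted p = 0.0502) and when any of 13 of the 17 libraries was left out (adjusted p up to 0.146, without saline VTA library 5). In the cocaine libraries of the same day, and in the saline libraries of day 1, it was past the threshold (-0.33 ± 0.07, adjusted p = 0.000263, and -0.38 ± 0.09, adjusted p = 0.00129). The other calls between the VTA and the NAc or PFC also held in both of these sets of libraries. In bulk tissue, fewer cells that express a gene and less RNA of that gene in each cell cannot be told apart. Markers of several cell types differed between the same libraries: in the NAc against the VTA the median log2 difference was -3.22 for fibroblasts (6 of 6 called lower), -1.66 for oligodendrocytes (10 of 10), -0.84 for astrocytes (9 of 12), -0.48 for endothelium (7 of 10) and 0.27 for microglia (4 of 10 called higher). Their part in the differences of the 5 genes was not tested.

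**Figure D1:**
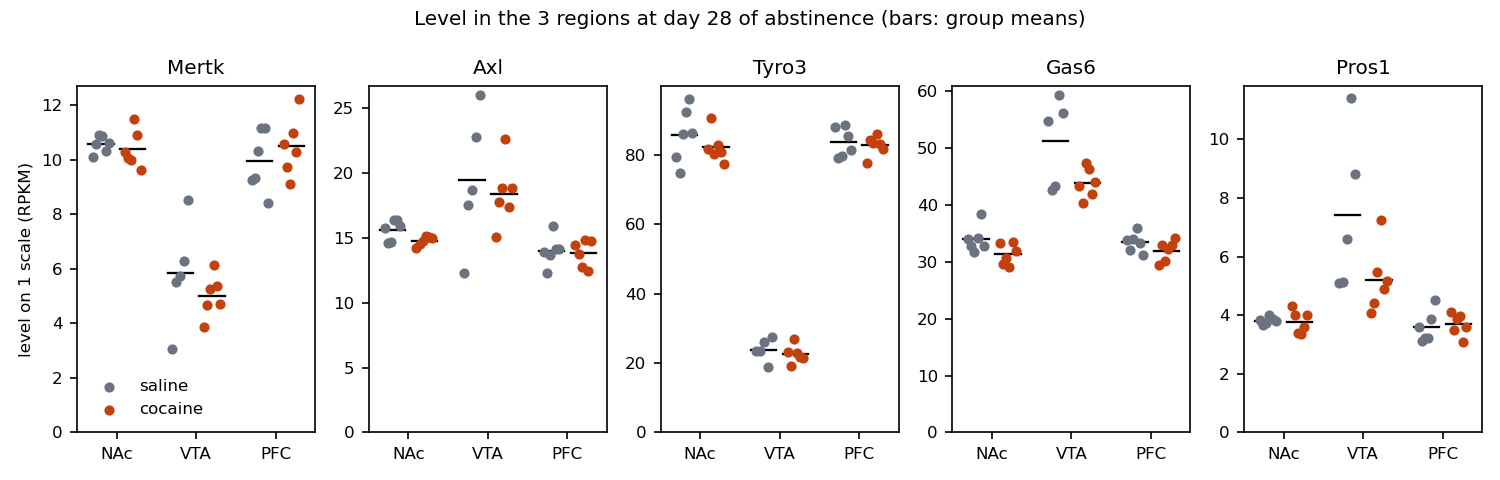
Level of each gene (RPKM, all libraries of day 28 on 1 scale) in the NAc, VTA and PFC; each point is 1 library, saline in grey and cocaine in orange, and bars are group means. Tyro3 and Mertk are lower in the VTA, while Axl, Gas6 and Pros1 are higher there, with the saline means of Tyro3 at 85.7, 23.9 and 83.7 RPKM.

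The receptors also made up unlike shares of their sum. Of the summed level of the 3 receptors per length in saline libraries of day 28, Tyro3 took 76.5% ± 1.26 (SD, n = 6) in the NAc and 77.7% ± 1.04 (n = 6) in the PFC, but 49.2% ± 7.91 (n = 5) in the VTA. Axl took 14.0% ± 0.717 in the NAc, 13.01% ± 0.617 in the PFC and 39.2% ± 5.87 in the VTA. Mertk contributed the least in all 3 regions, with 9.49% ± 0.73, 9.24% ± 0.843 and 11.6% ± 2.27. Within the NAc and the PFC the order of levels was Tyro3 above Gas6, Axl, Mertk and Pros1, and the libraries of neighbouring genes in this order did not overlap. In the VTA the order of the means was Gas6, Tyro3, Axl, Pros1 and Mertk. There Tyro3 overlapped with Axl, and Pros1 with Mertk.

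Of 3 lists of genes that act with the TAM receptors, the shares called between regions were for the most part near or below those of all genes. Of 4 genes of vitamin K dependent carboxylation, which is needed to make either ligand active, 2 were called between the NAc and the VTA (beside 62.5% of all genes), both lower in the NAc. They were Vkorc1, the vitamin K epoxide reductase, with a log2 difference of -0.61 (adjusted p = 6.3e-06), and its relative Vkorc1l1 with -0.33 (adjusted p = 0.0029, edgeR). Vkorc1 and the carboxylase Ggcx were higher in the VTA than in the PFC by 0.54 and 0.23 (adjusted p = 2.48e-05 and 0.0248, edgeR). Ggcx alone was called between the NAc and the PFC (0.29, adjusted p = 0.0078). The median of the list was -0.15 between the NAc and the VTA, beside -0.03 over all genes tested.

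In a list of 20 genes of TAM signalling, receptor shedding and feedback, all tested, 5 were called higher and 8 lower in the NAc than in the VTA, together 65.0% beside 62.5% of all genes. The list median was -0.07. The 3 higher genes with the smallest adjusted p were the focal adhesion kinase Ptk2 (0.68, adjusted p = 5.04e-07), the kinase Src (0.30, adjusted p = 0.000728) and the adaptor Grb2 (0.26, adjusted p = 0.00117). Among the lower ones were Ubash3b (-1.35, adjusted p = 4.73e-09) and the phospholipase Plcg2 (-1.03, adjusted p = 9.61e-06, all edgeR). Between the VTA and the PFC, 7 were called higher and 6 lower (65.0% beside 57.8% of all genes) with a median of -0.03. Ubash3b (0.79), Plcg2 (1.12) and Adam17 (0.61), a protease that sheds receptors from the cell surface, were higher in the VTA, and Ptk2 (-1.35), Src (-0.46) and Grb2 (-0.34) were lower. Between the NAc and the PFC 2 were called higher and 6 lower (40.0% beside 40.7%), and the list median was -0.12 beside 0.02 over all genes. The higher genes were Elmo1 (0.53) and Adam17 (0.36), and the lower ones were led by Ptk2 (-0.67), Ubash3b (-0.56) and Pik3r1 (-0.46).

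The third list held 30 genes for the recognition and uptake of dying cells and synapses, of which 28 were tested. Of these, 7 were called higher and 8 lower in the NAc than in the VTA, together 53.6% beside 62.5% of all genes. The higher genes were led by the neuronal chemokine Cx3cl1 (2.24, adjusted p = 1.85e-12), Sirpa, the receptor of the signal that spares a cell from uptake (1.21, adjusted p = 1.9e-11), and Bai1, another receptor for phosphatidylserine (0.92, adjusted p = 6.26e-09). The lower genes were led by the phosphatidylserine-binding Anxa5 (-1.96, adjusted p = 7.93e-12), the lipid transporter Abca7 (-1.44, adjusted p = 8.32e-09) and the integrin Itgb3 (-1.32, adjusted p = 1.38e-07, all edgeR). Between the VTA and the PFC, 14 were called higher and 4 lower (64.3% beside 57.8% of all genes), with a list median of 0.43 beside 0.02 over all genes. Those higher in the VTA were led by Anxa5 (1.79), the scramblase Xkr8 (1.34) and the complement factor C3 (3.62), and those lower by Sirpa (-1.60), Cx3cl1 (-1.95) and Bai1 (-1.05). Between the NAc and the PFC, 4 were called higher and 3 lower (7 of 28, beside 40.7% of all genes). The engulfment adaptor Gulp1 (1.74), Xkr8 (1.08) and Cx3cl1 (0.29) led the first, and the second were Itgb3 (-1.23), Abca7 (-0.88) and Sirpa (-0.39).

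The effect of cocaine was then taken up gene by gene. At day 1 all 6 cocaine libraries had a Mertk level above the saline median in each region, and 0 of 6 had a Tyro3 level above it. For Axl the number was 6 in the NAc, 4 in the VTA and 1 in the PFC. It was 5, 4 and 3 for Pros1 and 2, 4 and 2 for Gas6. The share of all genes with such numbers was not computed. In the NAc at day 1, the comparison by which the genes had been chosen, Mertk was at 16.7, 16.1, 15.9, 14.7, 14.7 and 17.3 RPKM in the 6 cocaine libraries and at 10.7, 11.5, 10.7, 13.4, 12.5 and 12.8 in the 6 saline libraries. The groups did not overlap, and the log2 difference was 0.41 ± 0.07 (1.33-fold). By the same measure, 58 of 15878 genes (0.365%) had groups that did not overlap, and 2 genes (0.0126%) passed an adjusted p of 0.05 by edgeR. Because Mertk was chosen by these libraries, no test of it is given here. The log2 difference of Mertk was higher than that of 98.7% of the genes tested. For Axl the difference was 0.09 ± 0.06, for Pros1 0.07 ± 0.12, for Tyro3 -0.07 ± 0.09 and for Gas6 -0.11 ± 0.07, and the groups of these 4 genes overlapped.

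In the VTA at day 1, Mertk was at 8.81, 9.23, 10.8, 9.84, 7.30 and 8.67 RPKM after cocaine and at 7.47, 7.07, 6.81, 8.31, 6.19 and 8.07 after saline. All 6 cocaine libraries lay above the saline median of 7.27 RPKM, and 5 of them above the highest saline library. The log2 difference of 0.31 ± 0.10 (1.24-fold) had an adjusted p of 0.184 (limma) and was not called. It was higher than that of 89.6% of genes in that table, in which 58.9% of all genes had a value above 0. By itself, the difference of group means had a two-sided exact permutation p of 0.013, which was the lowest of 25 such tests on the 5 genes in the 5 tables and is not corrected for their number. Among all genes there, 10 of 15042 genes (0.0665%) were called, 2366 had an unadjusted p under 0.05, and 251 (1.67%) had groups that did not overlap. Of the 5 genes 0 were called and 0 had groups that did not overlap, and 1, Mertk, had an unadjusted p under 0.05. With edgeR on whole reads recovered from the RPKM values, 55 genes were called and again none of the 5.

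In the PFC at day 1, Mertk was at 16.7, 13.04, 14.7, 12.8, 12.9 and 11.7 RPKM after cocaine and at 10.9, 11.8, 10.8, 10.6, 11.1 and 15.1 after saline. All cocaine libraries were above the saline median of 11.0 RPKM, and saline libraries 2 and 6 lay within the cocaine range. The difference was 0.22 ± 0.10 (1.16-fold, adjusted p = 0.913, limma, and exact permutation p = 0.0649). The value was higher than that of 97.4% of genes in that table, in which 1 gene of 14427 (0.00693%) was called, 546 had an unadjusted p under 0.05 and 0.159% had groups that did not overlap. Of the 5 genes 0 were called, and Mertk alone had an unadjusted p under 0.05. The other 4 genes had log2 differences between -0.14 (Tyro3) and 0.30 (Pros1) in the VTA and between -0.09 (Tyro3) and 0.00 (Pros1) in the PFC, with adjusted p from 0.389 to 0.998 (limma).

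**Figure D2:**
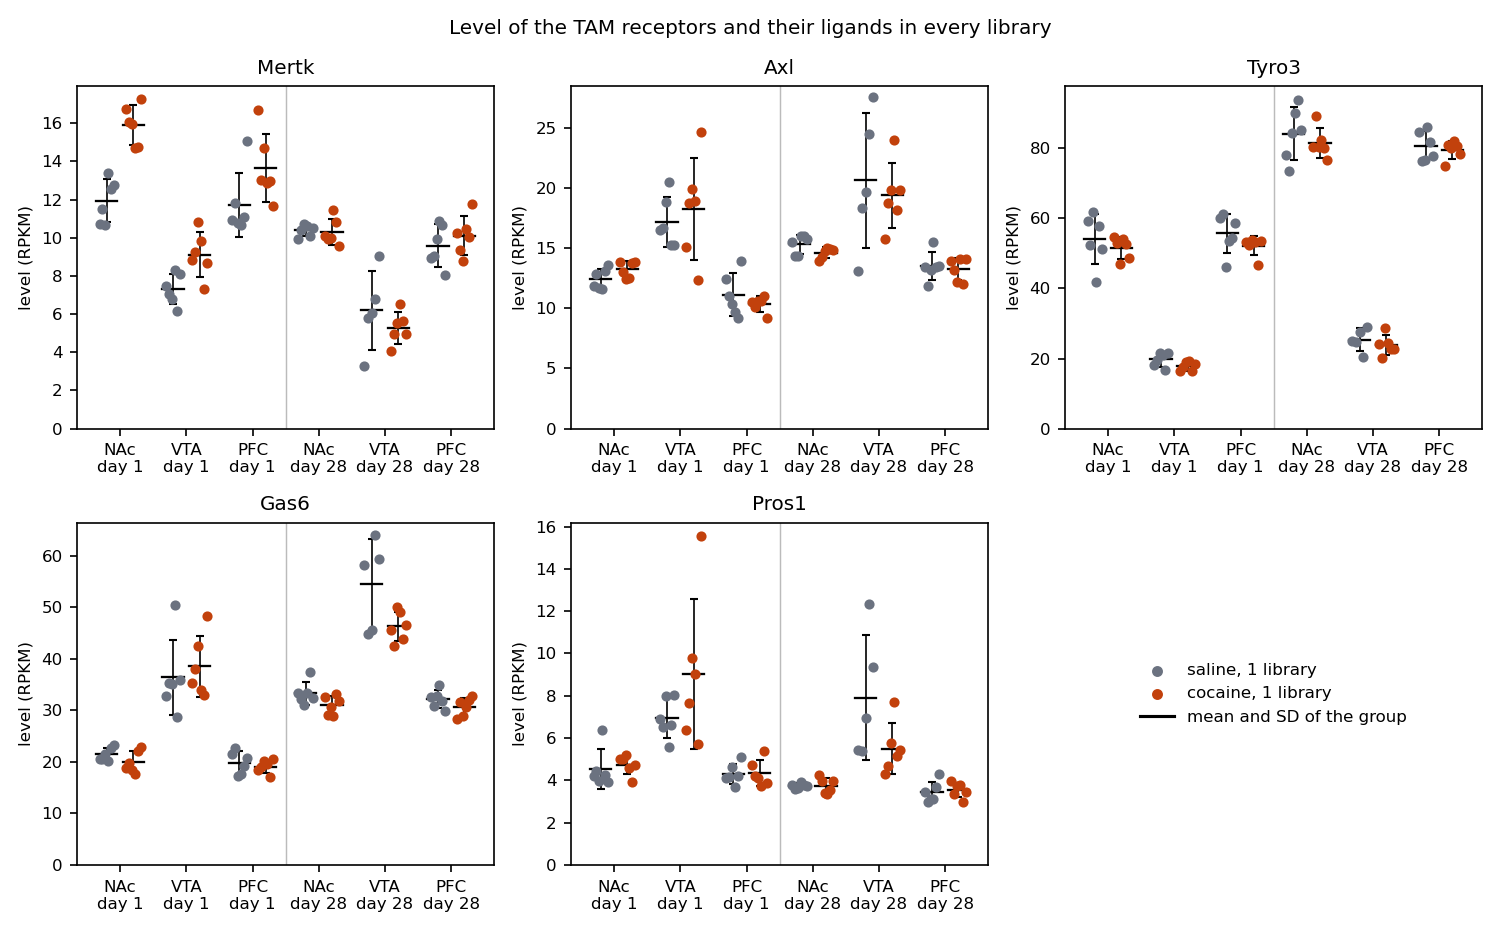
Level of each gene (RPKM) in every library by region and day of abstinence, with saline in grey and cocaine in orange; bars are the mean and SD of the group, and the vertical line separates day 1 from day 28. Mertk does not overlap between the groups of the NAc at day 1 (14.7 to 17.3 against 10.7 to 13.4 RPKM), and cocaine VTA library 6 at day 1 has the highest Pros1 level (15.6 RPKM).

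Genes that respond to glucocorticoids lay on the same side as Mertk at day 1. They were listed with earlier results of these data known, so their shared side is only a description. Of a list of 15 such genes, 15 had a value above 0 in each region, with a median log2 difference of 0.25 in the NAc, 0.61 in the VTA and 0.33 in the PFC, beside -0.0012, 0.03 and -0.01 over all genes. Of these, 2 were called in the NAc, 1 in the VTA and 1 in the PFC. Over all genes, 2 of 15878 (0.0126%), 10 of 15042 (0.0665%) and 1 of 14427 (0.00693%) were called. Their summed level was 175 to 266 RPKM after cocaine and 160 to 187 after saline in the NAc. In the VTA these ranges were 171 to 422 and 138 to 206, and in the PFC 182 to 249 and 154 to 185. No marker of the list was at 0 throughout a table. At day 28 the medians of the list were -0.11 in the NAc, -0.33 in the VTA and -0.11 in the PFC, with 14, 14 and 12 of 15 genes below 0 and none called, where Mertk was at -0.01, -0.23 and 0.07. Their part in the difference of Mertk was not tested. Markers of cells known to express Mertk were also compared at day 1. The 12 astrocyte markers had a median of 0.05 in the NAc, -0.13 in the VTA and -0.01 in the PFC, with 9, 3 and 5 of them above 0. The 10 microglia markers had medians of -0.04, -0.57 and -0.06, with 1, 0 and 2 above 0 and 1 called, lower, in the VTA. With the mean levels of both lists as covariates, the difference of Mertk was 0.37 in the NAc, 0.51 in the VTA and 0.29 in the PFC. In the VTA the summed microglia level was 122 to 168 RPKM after cocaine and 180 to 232 after saline, without overlap. The fit there cannot well separate these markers from the treatment, so nothing is read from the 0.51. The part of these cells in the difference of Mertk was not tested.

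Since Tyro3 was on the lower side in each region at day 1, the ratio of Mertk to Tyro3 was computed within each library, where the scaling of libraries cancels out. The ratio was looked at after the values were seen and has no test. In the VTA its log2 was -1.16 to -0.82 after cocaine and -1.66 to -1.27 after saline, so the groups did not overlap. In the NAc it was -1.88 to -1.50 against -2.54 to -1.65, and in the PFC -2.20 to -1.68 against -2.46 to -1.96, and these groups overlapped. The levels of Mertk alone and of Tyro3 alone overlapped between the groups of the VTA. There 1.67% of single genes had groups that did not overlap, and the share of all ratios without overlap was not computed. As a share of the 3 receptors, Mertk took 19.7% ± 1.48 after cocaine and 15.4% ± 2.66 after saline in the NAc (SD, n = 6). Its share in the VTA was 20.2% ± 1.81 and 16.6% ± 1.29, and its share in the PFC 17.9% ± 1.75 and 14.9% ± 1.47 (n = 6 each). The receptors summed to 80.8 ± 3.29 and 78.5 ± 6.43 RPKM in the NAc. The sums were 45.3 ± 5.99 and 44.2 ± 4.06 for the VTA, and 76.2 ± 3.58 and 78.6 ± 7.80 for the PFC.

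**Figure D3:**
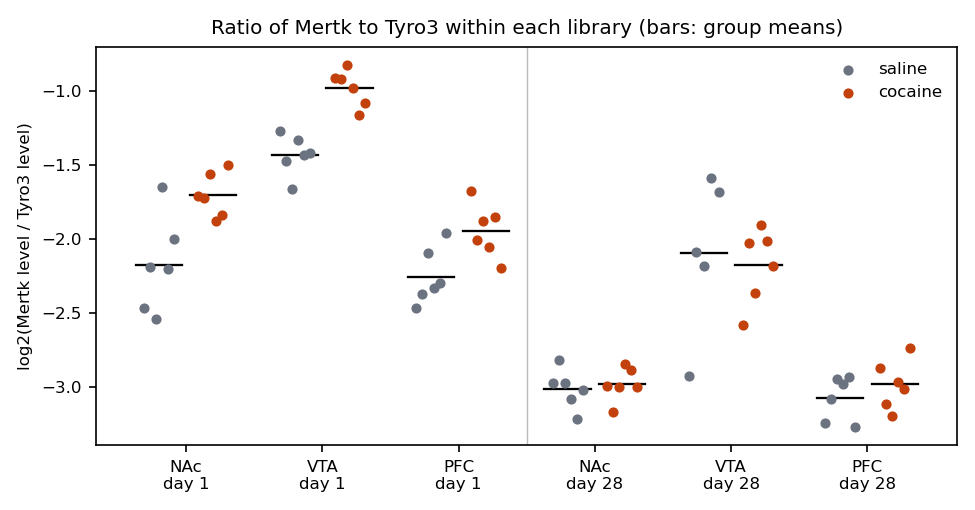
Log2 ratio of the Mertk level to the Tyro3 level within each library, by region and day, with saline in grey, cocaine in orange and group means as bars. At day 1 the cocaine mean is above the saline mean in each region (-1.70 against -2.17 in the NAc, -0.98 against -1.43 in the VTA and -1.94 against -2.25 in the PFC), and at day 28 the groups overlap throughout.

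At 28 days of abstinence no gene of the 5 was called in the NAc or the PFC. In the NAc Mertk was at 9.58 to 11.4 RPKM in the cocaine libraries (median 10.1) and at 9.95 to 10.7 in the saline libraries (median 10.5), with a log2 difference of -0.01 ± 0.05 (adjusted p = 0.979, edgeR). The difference of day 1 minus that of day 28, from 1 fit of all 24 NAc libraries, was 0.41 ± 0.08 for Mertk, 0.14 ± 0.07 for Axl, 0.05 ± 0.13 for Pros1, -0.01 ± 0.09 for Gas6 and -0.03 ± 0.11 for Tyro3. These differences rest in part on the libraries by which Mertk was chosen and have no test. The difference of Axl in the NAc was -0.07 ± 0.04, with 0 of 6 cocaine libraries above the saline median (exact permutation p = 0.0823), and that of Gas6 -0.10 ± 0.05, with 1 of 6 above it (exact permutation p = 0.0693). In the PFC the log2 differences lay between -0.06 (Gas6) and 0.07 (Mertk), with adjusted p of 0.872 and 0.912 (edgeR). By region, 0.0% of the 16295 and 16340 genes were called by edgeR, 1102 and 925 had an unadjusted p under 0.05, and DESeq2 called 11 and 2 genes, none of them among the 5, of which 0 had an unadjusted p under 0.05. The groups of 0.221% and 0.233% of genes did not overlap, and those of all 5 genes did.

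**Figure D4:**
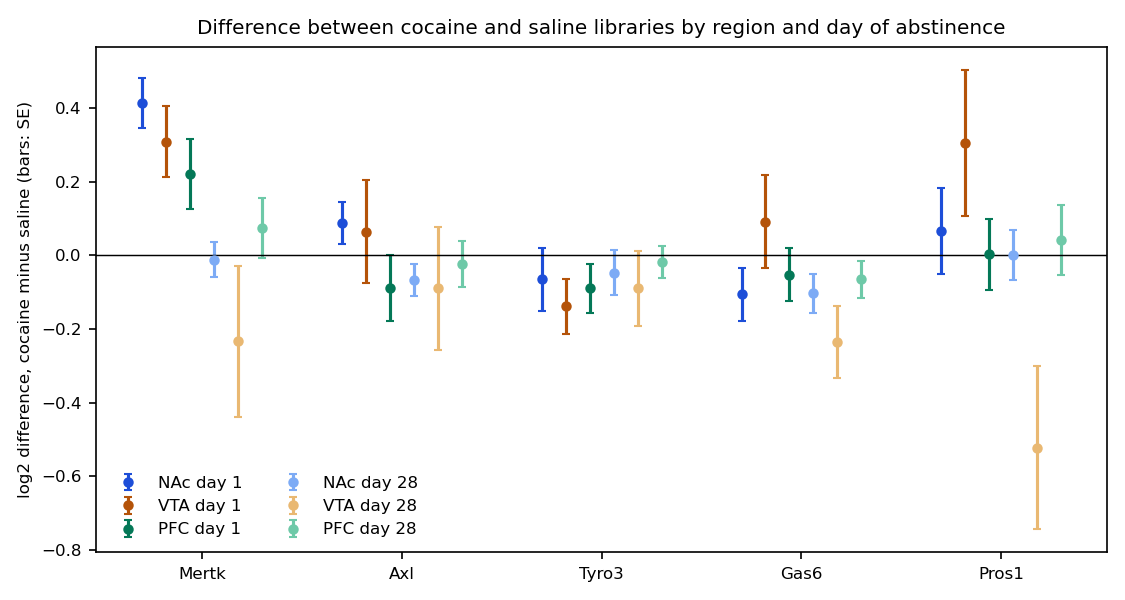
Log2 difference between cocaine and saline libraries for each gene in the 6 combinations of region and day; points are estimates and bars their SE. Mertk is above 0 in the 3 regions at day 1 (0.41, 0.31 and 0.22), and Pros1 has the widest error bars, in the VTA on both days.

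In the VTA at day 28, all 5 genes were on the lower side after cocaine and none was called. Of all genes in that table, 43.1% had a value above 0, and the median was -0.03. Pros1 had the largest difference of the 5 genes. It was at 4.28, 4.66, 5.79, 7.70, 5.14 and 5.46 RPKM after cocaine and at 5.44, 5.40, 6.96, 12.3 and 9.37 after saline, a log2 difference of -0.52 ± 0.22 (0.696-fold, adjusted p = 0.415, edgeR, and exact permutation p = 0.108). The groups overlapped, and saline libraries 4 and 5 set the upper end. Without saline library 4 the difference was -0.29. Gas6 was at 42.6 to 50.1 RPKM after cocaine (median 46.0) and at 58.3, 44.8, 45.6, 64.1 and 59.5 after saline (-0.23 ± 0.10, adjusted p = 0.413, exact permutation p = 0.0779). Mertk was at 4.05, 4.97, 5.54, 6.52, 5.63 and 4.98 RPKM after cocaine, and at 3.27, 5.82, 6.07, 6.80 and 9.04 after saline (-0.23 ± 0.21, adjusted p = 0.619, edgeR). Without saline library 1 the difference of Mertk was -0.39 and without saline library 5 it was -0.05. Saline VTA libraries thus held both the lowest and the highest Mertk level of the table. Axl and Tyro3 each had a difference of -0.09. Here 0.0% of 16937 genes were called by edgeR, 1942 of all genes and 2 of the 5 (Gas6 and Pros1) had an unadjusted p under 0.05, DESeq2 called 73 genes with none of the 5 among them, and the groups of 1.27% of genes did not overlap.

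The effect of cocaine at day 28 was also compared between regions, in 1 fit of the 35 libraries of that day. For 0 of 5 genes was the difference between regions called, beside 0.0339%, 0.0% and 0.0339% of 17679 genes for the NAc against the VTA, the NAc against the PFC and the VTA against the PFC. DESeq2 called 33, 0 and 93 genes in the same 3 comparisons, again none of the 5. At an unadjusted p under 0.05 the 3 comparisons held 1, 0 and 1 of the 5 genes, Pros1 in both cases. The largest value was that of Pros1, whose effect was higher in the NAc than in the VTA by 0.50 ± 0.21 (adjusted p = 0.512) and lower in the VTA than in the PFC by -0.55 ± 0.21 (adjusted p = 0.302, edgeR). For Mertk these values were 0.20 ± 0.19 and -0.30 ± 0.19 (adjusted p = 0.796 and 0.534).

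In the VTA, the library with the most fibroblast markers had the highest level of Pros1 and that with the least had the lowest, on both days. At day 1, cocaine library 6 had the highest summed fibroblast level (248 RPKM) and the highest Pros1 level (15.6), followed by cocaine library 3 (99.0 and 9.78), while saline library 4 had the lowest of both (13.4 and 5.58). At day 28, saline library 4 was highest in both (218 and 12.3) and cocaine library 1 lowest in both (12.2 and 4.28). The libraries highest in fibroblast markers were also highest in endothelial (236 and 295 RPKM) and mural markers (540 and 680). The same held for markers of border macrophages, choroid plexus and cortical excitatory neurons, so this is not particular to fibroblast markers. The order was not strict between these ends: at day 1 cocaine library 2 (93.6 and 7.68) lay below saline library 6 (37.2 and 8.04) in Pros1, and at day 28 cocaine library 5 (35.7 and 5.14) below saline library 1 (14.4 and 5.44). Axl was highest in cocaine library 6 at day 1 (24.7 RPKM) and in saline library 5 at day 28 (27.6), where the fibroblast sum was 81.3. Tyro3 showed no such order, at 18.3 and 20.4 RPKM in the libraries with the most fibroblast markers and 20.9 and 24.3 in those with the least.

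The summed levels of these markers overlapped between treatments on both days. At day 1 all 6 fibroblast markers had values above 0 in the cocaine against saline comparison of the VTA (median 1.45, none called), with summed levels of 38.2 to 248 RPKM against 13.4 to 72.6 after saline. At day 28 all 6 were below 0 (median -1.13, none called), at 12.2 to 87.1 against 14.4 to 218 RPKM. The medians were 0.37 and -0.43 for 10 endothelial markers and 0.72 and -0.58 for 6 mural markers. None of the fibroblast markers was at 0 throughout a VTA table. With the mean fibroblast level as a covariate, chosen after the data were seen, the difference of Pros1 in the VTA was -0.20 ± 0.11 at day 1 in place of 0.30 ± 0.20, and -0.22 at day 28 in place of -0.52. That of Mertk at day 1 was 0.29 in place of 0.31, and at day 28 -0.01 in place of -0.23. Without cocaine library 6, the difference of Pros1 at day 1 was 0.13. With the cortical neuron markers as a covariate instead of the fibroblast markers, the difference of Pros1 changed sign on both days. All 9 dopamine neuron markers tested had values below 0 at day 1, with a median of -0.56 and none called, and their part in these values was not tested.

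**Figure D5:**
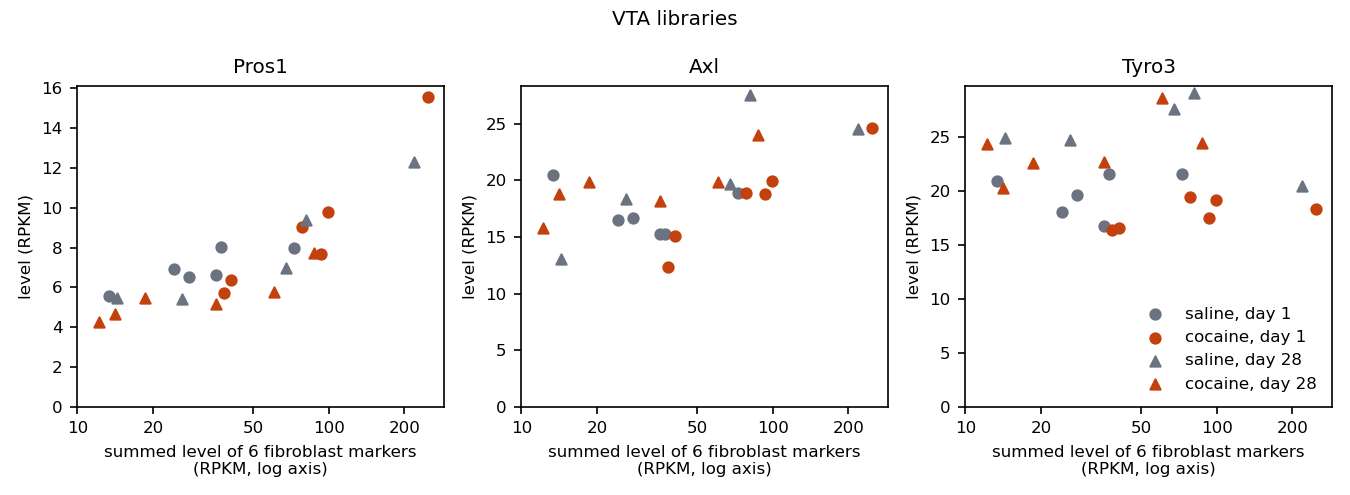
Level (RPKM) of Pros1, Axl and Tyro3 in the 23 VTA libraries against the summed level of 6 fibroblast markers (RPKM, log axis); circles are day 1 and triangles day 28, with saline in grey and cocaine in orange. Pros1 is highest in the libraries with the most fibroblast markers (15.6 and 12.3 RPKM at 248 and 218 RPKM of markers), and Tyro3 shows no such order.

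None of the genes in the 3 lists around the TAM receptors was called between cocaine and saline in any region at either day by limma or edgeR. At an unadjusted p under 0.05 the carboxylation list held 0 or 1 of 4 genes in each table. The signalling list held 4 of 19 in the VTA at day 1 (21.1%, beside 15.7% of all genes) and 0 or 1 in the other tables. The uptake list held 8 of 26 in the VTA at day 1 (30.8%) and 11 of 28 at day 28 (39.3%, beside 11.5% of all genes), and 0 to 2 elsewhere. In the NAc at day 1 the median log2 difference was 0.05 for the carboxylation list, 0.03 for the signalling list and -0.04 for the uptake list, beside -0.0012 over all genes. In the VTA at day 28, 17 of 20 signalling genes and 20 of 28 uptake genes were on the lower side, with medians of -0.09 and -0.18 beside -0.03 over all genes. Of all genes there, 43.1% were on the higher side. All 10 microglia markers (median -0.31) and all 10 oligodendrocyte markers (-0.39) were below 0. On the other side, 5 of 12 astrocyte and 9 of 10 dopamine neuron markers were above 0. The part of these cells in the values of the lists was not tested. In the remaining comparisons the medians of the 3 lists lay between -0.07 and 0.08.

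Finally, each gene was compared with 13816 others by the Pearson correlation of log2 levels over all 71 libraries after the mean of each of the 12 groups had been subtracted. These correlations describe how libraries vary within groups, share depth and tissue content, and have no p. Pros1 was most like Efemp1 (r = 0.90), a protein of the extracellular matrix, Tfpi, another inhibitor of coagulation (0.88), Vcam1 (0.88) and the myeloid lysozyme Lyz2 (0.88). Axl was most like Cpt1a, Cd97, Notch2 and Slc41a1 (r = 0.84 to 0.85). Mertk was most like the inositol trisphosphate receptor Itpr2 (0.78), Nwd1, Ssfa2 and Prex2 (0.75 each). Gas6 was most like Pnkd (0.81), Stard10, 4930572J05Rik and Panx2 (0.78 to 0.79), and Tyro3 was most like the kinases Mast3 and Mink1 (0.77 each), Aplp1 (0.74) and Fscn1 (0.73). Within the VTA the 4 values of Pros1 were 0.92 to 0.97, and in the NAc 0.43 to 0.80. Among the 5 genes, the highest value was that between Mertk and Axl (0.72), which was 0.79 in the 23 VTA, 0.62 in the 24 PFC and 0.29 in the 24 NAc libraries. For Mertk and Tyro3 it was -0.45 in the NAc, 0.32 in the VTA and 0.29 in the PFC.

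Levels also differed between the tables of the 2 days. In saline NAc libraries Tyro3 was at 54.1 ± 7.23 RPKM at day 1 and 84.2 ± 7.52 at day 28, Gas6 at 21.4 ± 1.28 and 33.3 ± 2.21, Axl at 12.5 ± 0.838 and 15.3 ± 0.771, Mertk at 11.9 ± 1.13 and 10.4 ± 0.303, and Pros1 at 4.54 ± 0.931 and 3.75 ± 0.111 (SD, n = 6). The tables of the 2 days were made separately, so the day of abstinence and the processing of a table cannot be told apart, and the levels were not tested against each other.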

How the data were processed

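RNA from micro-punches was sequenced in 71 libraries. Per the labels and the methods, the authors aligned reads to mm9 with STAR 2.4.1d. The tool that made the counts and whether it used strand are not given in the sources used here. The authors deposited raw gene counts for the NAc at day 1 and for all regions at day 28, and RPKM values for the VTA and PFC at day 1. At day 28 column names gave the group only. The deposited tables also hold 30 columns of libraries outside the series, and fold changes and p-values of the authors' own comparisons, and none of these was used. Library totals were 20971967 to 49700932 reads. No pair of libraries of the same group was as alike as 1 library split (lowest chi-square per gene 4.59, where 1 is the value for such a split). Pairs from unlike groups were not checked.

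Counts were filtered (filterByExpr, minimum count 10, minimum total 15), scaled by TMM and tested with edgeR's quasi-likelihood test (4.0.16, R 4.3.3). RPKM values were tested with limma 3.58.1 on log2(RPKM + 0.1) for genes with a mean of at least 0.5, a scale that understates changes of low genes. P-values were adjusted over all genes by the Benjamini-Hochberg method, with a threshold of 0.05. Single genes were also compared by two-sided exact permutation of libraries. In the RPKM tables whole reads were recovered for 23803 of 23806 and 23351 of 23353 genes (tolerance 0.002 reads). Alternatives were DESeq2 1.42.0, other scaling, no filter, marker covariates, a replicate block and each library left out. The scripts were tested on simulated data.

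The members, lists and tests were chosen with earlier results of these data known. The 5 members are named throughout. Of a pathway list, all called genes are named where there are at most 6, otherwise 3 per direction, taken by lowest adjusted p, and for likeness the 4 genes with the highest correlation. A gene that this rule would name is not reported here.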

Additional observations from a re-analysis of the deposited data

Results flagged for a closer look

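In 5 of 60 groups of libraries (5 genes in 12 groups) 1 library lay far from the rest of its group by Dixon's criterion, and chance alone flags about 1 group in 20. Mertk in saline PFC library 6 at day 1 was at 15.07 RPKM, and the next library was at 11.82. Tyro3 in cocaine PFC library 5 at day 1 was at 46.64 RPKM, below the next at 52.45. Gas6 was at 50.4 RPKM in saline VTA library 4 at day 1 (next 35.92) and at 37.49 in saline NAc library 5 at day 28 (next 33.43). Pros1 in saline NAc library 4 at day 1 was at 6.395 RPKM (next 4.446).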

How the results depend on the processing

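Values of single genes under the alternatives were rated by their direction and side of the threshold. In the NAc at day 1, which has no test, they were rated the same if within 1 pooled SD of log2 levels from the main value. By these rules 1348 were the same, 62 changed sign and 15 were no longer called (all of them Axl between the NAc and the VTA). The number of the 5 genes called was the same in 183 of 199 cases. In 15 of the other 16 it was 4 in place of 5 between the NAc and the VTA, through Axl, and at an adjusted p under 0.25 in the VTA at day 1 it was 1 (Mertk) in place of 0. The cause of the other changes was not tested. With the cortical neuron markers as a covariate, the difference in the VTA was -0.074 for Axl and -0.16 for Pros1 at day 1, and 0.44 for Axl, 0.36 for Mertk and 0.14 for Pros1 at day 28. With the fibroblast markers it was -0.18 for Axl and -0.20 for Pros1 at day 1, and 0.10 for Axl at day 28. With the astrocyte and microglia markers it was 0.027 for Axl in the VTA at day 28, 0.0099 for Gas6 in the PFC at day 1, 0.0054 for Mertk and 0.0022 for Tyro3 in the NAc at day 28, and -0.0072 for Pros1 in the PFC at day 28. With DESeq2 size factors, Pros1 in the NAc at day 28 was at -0.00047. Between the NAc and the PFC the cocaine libraries gave -0.036 for Gas6, -0.019 for Mertk and -0.014 for Tyro3, and the saline libraries of day 1 -0.0037 for Mertk and -0.071 for Tyro3 (-0.074 with the replicate block).

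With each library left out in turn, Mertk in the NAc at day 1 stayed between 0.38 and 0.45, and 4 to 5 genes were called between the NAc and the VTA. The values that changed sign ranged from -0.057 to 0.021 (Axl, PFC day 28), -0.028 to 0.17 (Axl, VTA day 1), -0.21 to 0.040 (Axl, VTA day 28), -0.017 to 0.047 (Gas6, NAc against PFC), -0.043 to 0.0096 (Mertk, NAc day 28), -0.042 to 0.032 (Pros1, NAc day 28), -0.062 to 0.050 (Pros1, PFC day 1) and -0.033 to 0.0019 (Tyro3, PFC day 28). For the difference of the cocaine effect between regions they were -0.13 to 0.14 for Axl and -0.039 to 0.094 for Tyro3 (NAc against VTA), and -0.18 to 0.082 for Axl and -0.14 to 0.0091 for Tyro3 (VTA against PFC).

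At day 1, at most 4 of 6 same-numbered pairs of cocaine and saline libraries in a region had a correlation over 0.1. In the NAc the correlations ran from -0.54 to 0.64. Pairs with unlike numbers were not compared, so whether the replicate numbers mark a pairing was not tested. With the replicate block, Mertk was at 0.42 in the NAc, 0.31 in the VTA (adjusted p = 0.115, limma) and 0.22 in the PFC at day 1, and the genes called in the VTA were 60 in place of 10. At day 28 no paired analysis was possible because the columns carry no sample number. With 1 library left out, the genes called in the VTA at day 1 were 0 to 65 (65 without cocaine library 6), and those of the differences between regions 0 to 64 and 0 to 270 in place of 6, both highest without saline VTA library 1. In the VTA at day 1 they were also 55 by edgeR on recovered reads, 1309 at an adjusted p under 0.25 and 0 with any marker covariate. In the NAc at day 1, 16 were called with the astrocyte and microglia covariates and 19 by DESeq2 in place of 2, and in the PFC 4 at an adjusted p under 0.25 and 0 with these covariates in place of 1. By DESeq2 the counts at day 28 were 11 (NAc), 73 (VTA) and 2 (PFC) in place of 0, and 33 and 93 in place of 6 for the differences between regions.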
